A study of Saccharomyces cerevisiae with 219 samples.

Results

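The end of a menadione time course was examined by setting samples taken 7, 7.5 and 8 h after exposure against samples taken 5, 5.5 and 6 h after exposure. The comparison used 12 of the 38 arrays of the course, out of 219 arrays in the series, and the arrays were chosen by the hours in their titles. Each window held 6 arrays, with 3 from each of 2 replicate series. All samples came from one yeast strain, S288c of mating type MATα with mutations in HIS3, LEU2, LYS2, TRP1 and URA3, kept for 7 days in aerated rich medium with adenine at 30 °C until the culture was in stationary phase. According to the methods, both windows had been exposed to 50 μM menadione with no added carbon source, while the labels give only the time. By this description the windows differ in time, and no untreated culture of the same age was used here. T0 arrays, 6 in number, measured the culture before exposure. A second course of the same strain, shifted from 30 to 39 °C and sampled at the same hours, gave 12 of its 32 arrays for a comparison of the same windows.

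Menadione is a quinone that cycles between its oxidized and reduced forms in the cell, consuming NADH and NADPH and producing superoxide. Yeast answers such stress mainly through the transcription factors Yap1p and Skn7p, which turn on thioredoxins, peroxidases, superoxide dismutases and reductases. Once glucose is used up yeast lives on ethanol and acetate, and cultures enter stationary phase as carbon sources are exhausted. The enzymes for using ethanol and acetate are those of acetate activation, the glyoxylate cycle and gluconeogenesis. They are repressed by glucose and turned on by the activators Cat8p and Adr1p. Growth genes, above all those for ribosomal proteins, are held low in stationary phase.

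Transcript abundance is given as the log2 ratio of the sample, labelled with Cy5, to a common reference that mixed stationary and exponential RNA, labelled with Cy3. Each array was centred on its median, so a value of 0 is the middle transcript of that array and a difference of 1 between windows is a 2-fold change relative to it. The arrays held 4702 to 5873 usable values at 5-6 h and 4757 to 5651 at 7-8 h. Neither this number (exact permutation test within series, two-sided, p = 0.71), nor the array median before centring (p = 0.755), nor the percentage of values at or below 0 (p = 0.28) separated the windows. Arrays of the same series correlated at 0.862 to 0.962 and arrays of different series at 0.807 to 0.889. Of 9 marker genes of stationary cultures, 9 were above 0 at T0 and 6 were above 0 in each late window, and all 135 ribosomal protein genes were below 0 in all of these groups. Transcripts missing from more than 1 array of either window were left out, and the test covered 3764 of 5691 genes.

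Only 1 transcript passed the test between the windows (limma, blocked on the replicate series, Benjamini-Hochberg adjusted p under 0.05). PCK1, which encodes phosphoenolpyruvate carboxykinase, the enzyme that commits carbon to gluconeogenesis, fell 3.63-fold. None rose. As a share of the genes tested this is 0.0266% lower and 0% higher. At an unadjusted p under 0.05 there were 96 genes higher (2.55%) and 192 lower (5.1%), and the balance depended on the scaling. Without centring the counts were 22 and 103, with the median of all genes at -0.10 in place of -0.01, and with quantile normalization they were 114 and 138. The median size of the difference over all genes was 0.21 on the log2 scale and the median standard error was 0.25. The difference was 2-fold or more for 56 genes (1.49%), with 26 higher and 30 lower. For 2688 genes (71.4%) the 95% interval lay within a 2-fold change in either direction. The 3 times of a window were taken as repeats although they are successive samples of a series, and the sources used here do not say whether the 2 series were separate cultures, so p-values measure the spread between these samples, which may be technical.

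PCK1 was measured on all 12 arrays. In series 1 its log2 ratio was 5.28, 4.42 and 4.2 at 5, 5.5 and 6 h and then 3.28, 2.58 and 2.25 at 7, 7.5 and 8 h. In series 2 the values were 5.29, 4.51 and 4.33, and then 3.41, 2.53 and 2.84. All 6 late values were below all 6 early ones, and PCK1 was lower at 6 h than at 5 h in both series. The mean went from 4.67 ± 0.49 to 2.81 ± 0.45 (SD, n = 6 each), a difference of -1.86 ± 0.27 (SE), with a 95% interval of -2.44 to -1.28 and an adjusted p of 0.0475. The arrays at 6.5 h, which the comparison did not use, gave 3.64 and 3.28 and so lay between the windows. PCK1 had been at -0.28 at T0, and its mean was highest at 4 h, at 5.36. At 8 h its mean of 2.55 still stood above all T0 values, which ran from -0.56 to 0.21. The call itself was narrow: leaving out each array in turn moved the difference only between -1.98 and -1.71, but the adjusted p ranged from 0.0285 to 0.136 and PCK1 passed in 2 of the 12 fits, those without one or the other array at 7 h. PCK1 also missed the threshold without centring (adjusted p = 0.154), with quantile normalization (0.0567), with robust and trended moderation (0.116), with values in at least 2 arrays of each window (0.0991), and with means fitted for every time over 32 arrays (0.218). It passed without the replicate block (adjusted p = 0.0393), with values in all 12 arrays (0.0231) and in a linear trend from 5 to 8 h (2.93e-05). In series 2 alone the adjusted p was 0.899 and in series 1 alone 0.998. Without both arrays at 5 h, a comparison added after the data had been seen, the difference of PCK1 was -1.55 ± 0.24 (adjusted p = 0.233). In such bulk samples less of the transcript per cell cannot be told apart from fewer cells that carry it. The paper reports that many transcripts of stationary cells resist extraction unless protease is added or the cells are stressed. The RNA isolation described for this course had no protease step. For PCK1 and every other gene here, less extracted transcript cannot be told apart from less transcript, and this was not tested.

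**Figure D1:**
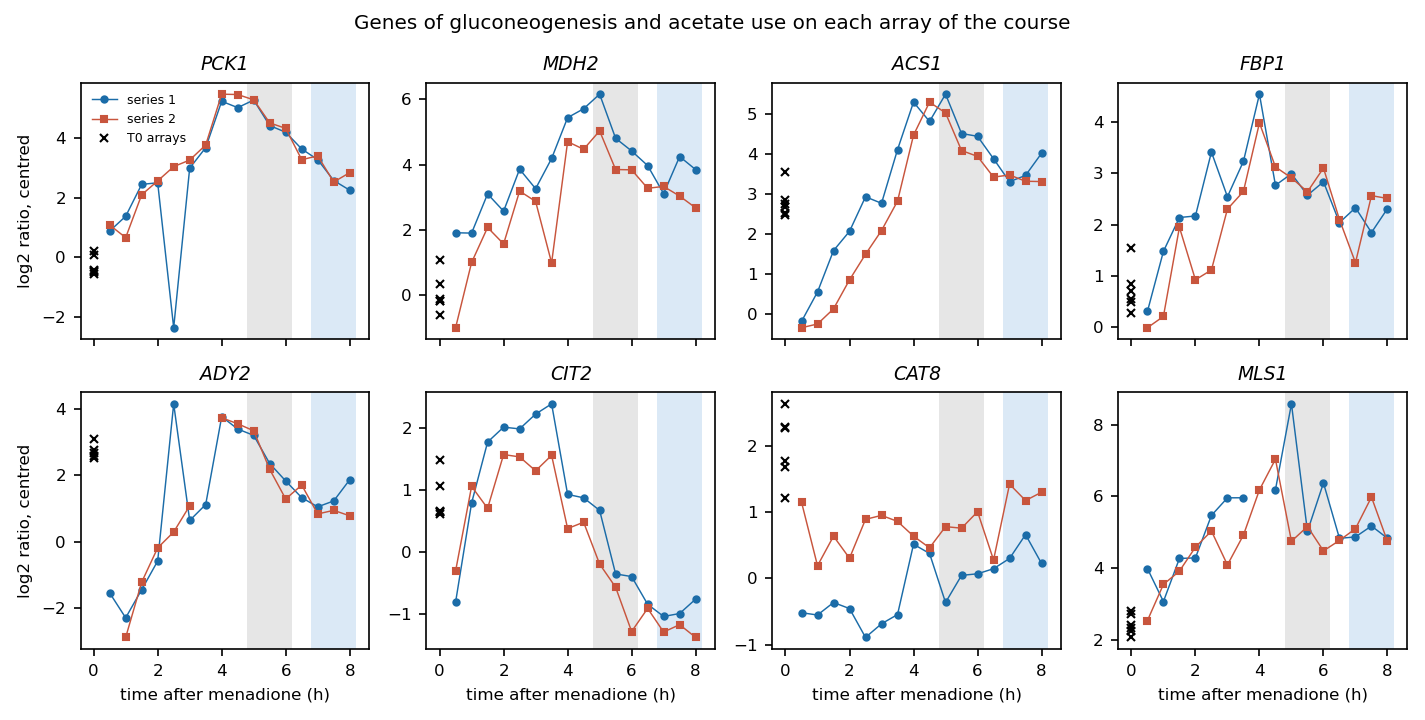
Centred log2 ratio of 8 genes of gluconeogenesis, the glyoxylate cycle and acetate use against the time after menadione in hours, with circles for series 1, squares for series 2 and crosses for the 6 T0 arrays. The grey band marks 5-6 h and the blue band 7-8 h; PCK1 lies between 4.2 and 5.29 in the first and between 2.25 and 3.41 in the second.

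Most other genes listed for growth on acetate and ethanol had differences of the same sign as PCK1, although none of them passed the test. Of 22 genes listed for gluconeogenesis, the glyoxylate cycle and acetate use, 19 were tested (ACH1, SFC1 and SIP4 had too few values). PCK1 is among the 19 and enters all counts and medians of this list. By point estimate 16 were lower at 7-8 h and 3 higher. The median difference was -0.70, against -0.01 for all genes tested. An unadjusted p under 0.05 was reached by 12 of the 19 on the lower side and 1 on the higher side, where 5.1% and 2.55% of all genes did so. This list and those below were chosen with earlier results of these data known. Their shares are therefore not independent evidence of a change in a pathway. The median was -0.78 in series 1 and -0.62 in series 2, and with quantile normalization it was again -0.70. With series 2 alone 5 of 18 members reached an unadjusted p under 0.05 on the lower side (1.8% of all genes), and with series 1 alone 8 of 16 did (3.09%). Within the early window the median level of the list went from 2.79 (5 h) to 1.37 (5.5 h) and 1.46 (6 h), and the late times gave 1.11, 1.28 and 1.33. By array it was 2.43 and 2.79 at 5 h and 1.29 to 1.57 at 5.5 and 6 h, and the late arrays ran from 0.30 to 1.71, so that apart from 5 h the windows overlapped. Without both arrays at 5 h the median difference of the list was -0.43, with 8 members lower and 2 higher at an unadjusted p under 0.05, where 2.71% and 1.76% of all genes were.

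The enzymes beside PCK1 in the pathway were MDH2 and FBP1. MDH2, the cytosolic malate dehydrogenase that supplies oxaloacetate to Pck1p, gave 6.16, 4.81 and 4.42 in series 1 and 5.04, 3.85 and 3.84 in series 2 at 5 to 6 h, and 3.12, 4.25 and 3.85 and then 3.33, 3.04 and 2.68 at 7 to 8 h. The series differed in level, and within each of them the windows did not overlap. The difference of MDH2 was -1.31 ± 0.33 (SE), with a 95% interval of -2.02 to -0.59 (unadjusted p = 0.00171, adjusted p = 0.335), and -0.85 ± 0.24 without both arrays at 5 h. FBP1, fructose-1,6-bisphosphatase, ran from 2.57 to 3.10 at 5-6 h and from 1.26 to 2.56 at 7-8 h, so the windows nearly touched. Its difference was -0.70 ± 0.23 (adjusted p = 0.43), and -0.65 ± 0.28 without both arrays at 5 h.

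Differences of similar size were measured for genes that bring acetate into metabolism. ACS1, an acetyl-CoA synthetase, had a median of 4.48 at 5-6 h (range 3.95 to 5.51) and of 3.39 at 7-8 h (3.31 to 4.02), a difference of -1.11 ± 0.25 with an interval of -1.64 to -0.57 (adjusted p = 0.327). ADY2, an acetate transporter, ran from 1.29 to 3.34 and then from 0.78 to 1.87 (difference -1.25 ± 0.33). JEN1, the transporter of lactate and pyruvate, differed by -0.92 ± 0.26, and ATO3, a putative ammonium exporter of the ADY2 family, by -0.67 ± 0.21. Among the enzymes that turn ethanol into acetate, the alcohol dehydrogenase gene ADH2 differed by -1.39 ± 0.56 and the aldehyde dehydrogenase genes ALD6 and ALD4 by -0.73 ± 0.25 and -0.63 ± 0.27. The values of ADH2 at 7-8 h ran from -2.22 to 1.57, with the lowest at 7 h in series 1. Without both arrays at 5 h the differences of ACS1, ADY2, JEN1, ATO3, ADH2, ALD6 and ALD4 were smaller, at -0.77, -0.79, -0.55, -0.41, -0.92, -0.42 and -0.26.

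The glyoxylate cycle, which lets cells build sugars from acetate, was less even. CIT2, the peroxisomal citrate synthase, differed by -0.75 ± 0.23 and ICL1, isocitrate lyase, by -0.95 ± 0.39 with 5 arrays in the early window. MLS1, malate synthase, differed by -0.61 ± 0.56, with -1.70 in series 1 and 0.48 in series 2, where a value of 8.58 at 5 h stood apart in series 1. Without both arrays at 5 h CIT2 differed by -0.45, ICL1 by -0.83 and MLS1 by -0.14. ICL2, which despite its name is a mitochondrial 2-methylisocitrate lyase, had a positive difference of 0.43 ± 0.22. CAT8, the activator of many of these genes, gave -0.36, 0.05 and 0.07 in series 1 and 0.78, 0.76 and 1.01 in series 2 at 5 to 6 h, and 0.30, 0.66 and 0.23 and then 1.42, 1.18 and 1.30 at 7 to 8 h. CAT8 was thus higher at every late time within each series, by 0.46 ± 0.15 (unadjusted p = 0.00893, adjusted p = 0.417), while PCK1, FBP1 and ACS1, known targets of Cat8p, had negative differences. ADR1, the other activator, differed by 0.23 ± 0.22.

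In the temperature upshift course the same hours gave no call in either direction among 2433 genes tested (0% each; 39 higher, 1.6%, and 58 lower, 2.38%, at an unadjusted p under 0.05). The 16 genes of the acetate list that could be tested there had a median difference of 0.06, and none reached an unadjusted p under 0.05. PCK1 differed by 0.14 ± 0.57 after the upshift, MDH2 by 0.19 ± 0.32 and ACS1 by -0.21 ± 0.22. The change after menadione minus that after the upshift was tested as an interaction over 2290 genes, and none was called (0% each; 58 higher, 2.53%, and 76 lower, 3.32%, at an unadjusted p under 0.05, smallest adjusted p = 0.177). For PCK1 this difference of differences was -2.0 ± 0.64 (unadjusted p = 0.005, adjusted p = 0.589). It was -1.49 ± 0.47 for MDH2 and -0.90 ± 0.33 for ACS1, and 6 of 16 genes of the list reached an unadjusted p under 0.05, all with the more negative change after menadione. A difference between the courses was therefore not shown for any single gene. The upshift arrays held 2644 to 5731 usable values.

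**Figure D2:**
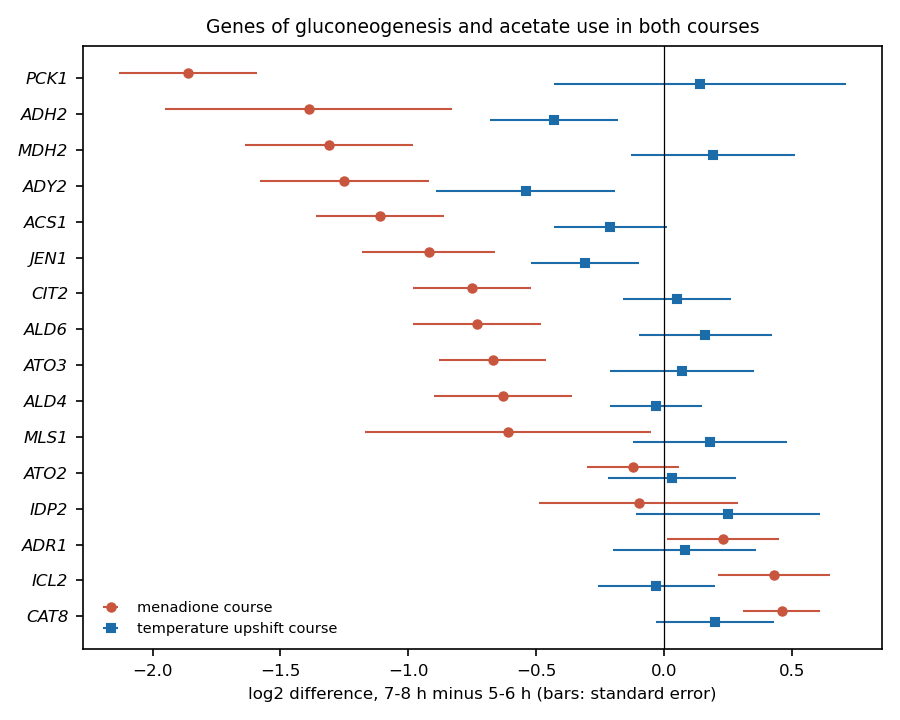
Log2 difference between 7-8 h and 5-6 h for the 16 genes of the acetate list tested in both courses, with circles for menadione, squares for the temperature upshift and bars for the standard error. PCK1 lies at -1.86 after menadione and at 0.14 after the upshift.

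Ribosomal protein genes, which cells at rest hold low, were mostly lower still at 7-8 h by point estimate. Of 135 genes for cytosolic ribosomal proteins 133 were tested, 127 had a negative difference (95.5%, against 50.7% of all genes), and 50 reached an unadjusted p under 0.05, all lower (37.6%, against 5.1% of all genes). None passed after adjustment, although RPL26A and RPL29 did when means were fitted for every time over 32 arrays (adjusted p = 0.0443 and 0.0476). Their median difference was -0.45, with -0.37 in series 1 and -0.50 in series 2, and the range was -1.21 to 0.31. RPL26A, a protein of the large subunit, gave -5.20, -5.86 and -5.49 in series 1 and -5.52, -5.29 and -4.41 in series 2 at 5 to 6 h. At 7 to 8 h RPL26A gave -6.14, -6.47 and -6.54, and -6.67, -6.62 and -6.55, so the windows did not overlap (difference -1.21 ± 0.22, adjusted p = 0.144). RPL16A, also of the large subunit, ran from -6.01 to -5.16 and then from -6.92 to -6.35 (difference -0.86 ± 0.19), and RPS1A of the small subunit from -5.20 to -4.57 and then from -6.27 to -5.26 (difference -0.76 ± 0.19). All 6 late values were below all 6 early ones for 20 of the 2614 genes with 12 values (0.765%), and 4 of these 20 were ribosomal protein genes; the reverse held for 3 (0.115%).

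Ribosomal protein transcripts were far below the reference, and the size of their difference depended on the scaling. The deposited ratio of ribosomal protein genes had a median of 0.081 at 5-6 h and of 0.058 at 7-8 h, and it is given in steps of 0.001. With quantile normalization the median difference of the list was -0.16 in place of -0.45, and 10 genes were lower (7.52%, against 3.67% of all genes) and 1 higher at an unadjusted p under 0.05. Of the 133 genes, 132 had a higher difference under quantile normalization than under centring, and 30 went from below 0 to above 0. Without centring the median was -0.55. At an unadjusted p under 0.05, 18 of 128 members were lower in series 2 alone (1.8% of all genes) and 26 of 131 in series 1 alone (3.09%). Without both arrays at 5 h the median was -0.34 and 25 of 132 members were lower (2.71% of all genes). Paired copies of many of these genes are nearly identical in sequence, so a probe may also have measured the partner, and the 133 values are not independent of each other.

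**Figure D3:**
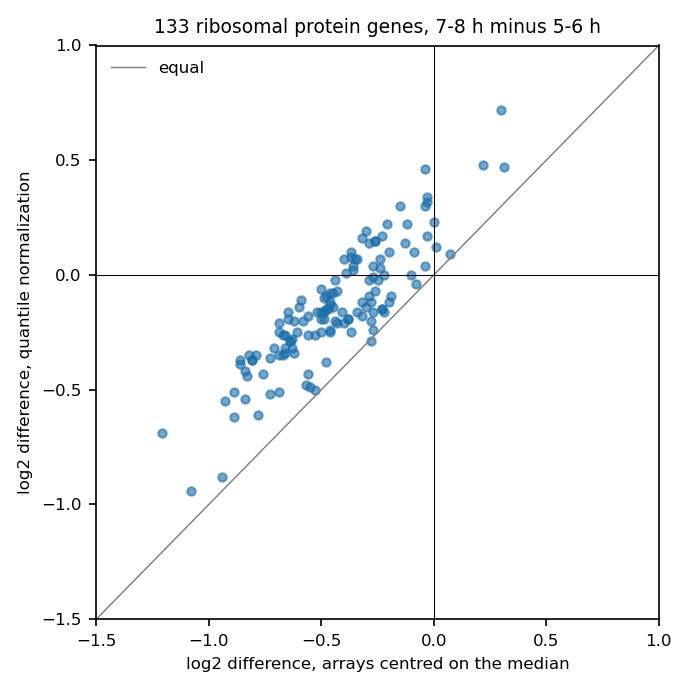
Log2 difference between 7-8 h and 5-6 h for 133 ribosomal protein genes, with arrays centred on their medians on the horizontal axis and quantile normalized on the vertical axis; each point is a gene and the diagonal marks equal values. The points lie above the diagonal for 132 genes, with medians of -0.45 and -0.16.

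Among genes of oxidative stress defence the differences were mixed. Of 39 listed genes 32 were tested, 8 reached an unadjusted p under 0.05 on the lower side (25%, against 5.1% of all genes) and 1 on the higher side (3.12%, against 2.55%), and the median difference was -0.17. The median was -0.22 in series 1 and -0.06 in series 2. Without both arrays at 5 h the median was -0.06, and 6 of 30 members were lower (20%, against 2.71% of all genes). OYE2, an NADPH oxidoreductase of the old yellow enzyme family, which reduces quinones and enones, gave -0.68, -0.29 and -0.45 in series 1 and -0.96, -0.84 and -1.0 in series 2 at 5 to 6 h. It then gave -1.19, -1.63 and -1.74, and -1.77, -1.77 and -2.89, with no overlap. The difference of OYE2 was -1.13 ± 0.21 (adjusted p = 0.144), and OYE2 had been at -2.99 at T0 and at 1.85 at 0.5 h. It passed the test when means were fitted for every time over 32 arrays (adjusted p = 0.00268) and in a linear trend from 5 to 8 h (adjusted p = 0.027). GRE2, a methylglyoxal reductase of the stress response, ran from 6.57 to 8.15 and then from 4.21 to 6.76 over 5 arrays (difference -1.48 ± 0.45). PST2, a flavodoxin-like protein induced by quinones, differed by -0.84 ± 0.21.

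The enzymes that remove superoxide and peroxide had smaller differences. SOD1, the copper-zinc superoxide dismutase, went from 3.24 to 3.78 at 5-6 h to 2.71 to 3.15 at 7-8 h, without overlap, by -0.55 ± 0.15 (unadjusted p = 0.0027, adjusted p = 0.355), and it remained far above its T0 values of -1.41 to -0.54. SOD2, the mitochondrial enzyme, differed by -0.39 ± 0.18, CCP1, cytochrome c peroxidase, by -0.73 ± 0.22, and CTA1, the peroxisomal catalase, by -0.48 ± 0.15. The regulator YAP1 differed by 0.02 ± 0.17, with an interval of -0.35 to 0.39, and the peroxiredoxin TSA1 by -0.19 ± 0.19. SKN7, the partner of Yap1p, differed by 0.44 ± 0.20. Of 29 transcripts that the study discusses for this course 28 were tested, none was called, and their differences ran from -0.73 (CCP1) to 0.18 (PUP2) with a median of -0.11. At an unadjusted limma p under 0.05, 3 of the 28 were lower (SOD1, SOD2 and CCP1) and 0 higher, where 5.1% and 2.55% of all genes were.

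Proteasome and chaperone genes, which increased earlier in the course, showed little difference between the windows. Of 36 genes for proteasome subunits and their assembly 35 were tested, and their differences ran from -0.43 (ECM29) to 0.33 (RPT2) with a median of -0.07. The 95% interval lay within a 2-fold change for 33 of the 35. RPT1, an ATPase of the cap, was the only one with an unadjusted limma p under 0.05 (-0.33 ± 0.15). The transcription factor gene RPN4, which drives the others, differed by -0.28 ± 0.31, and the polyubiquitin gene UBI4 by -0.08 ± 0.15. In the 2 h before, from 3-4 h to 5-6 h, 28 of these 35 genes had been called higher and none lower (3.89% and 9.26% of all genes in that step), with a median of 1.05.

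Chaperone genes had a median difference of 0.19 over 33 tested of 37. An unadjusted p under 0.05 was reached by 3 higher (9.09%, against 2.55% of all genes) and 2 lower members (6.06%, near the 5.1% of all genes), and by none in either direction without both arrays at 5 h. The higher ones were the Hsp40 gene YDJ1 (0.42 ± 0.16), the Hsp110 gene SSE1 (0.36 ± 0.15) and the Hsp40 gene APJ1 (0.49 ± 0.21). SSE1 gave -0.50, -0.13 and -0.27 in series 1 and -0.02, 0.39 and 0.35 in series 2 at 5 to 6 h, and 0.01, 0.21 and 0.16 and then 0.74, 0.43 and 0.45, higher at every late time within each series. The lower ones were SSB1 and SSB2, near-identical Hsp70 genes whose products sit on the ribosome, at -0.48 ± 0.21 and -0.48 ± 0.19; with quantile normalization these values were 0 and 0.03. HSP104, the disaggregase, differed by 0.27 ± 0.20 and HSP82 by -0.05 ± 0.16. From 3-4 h to 5-6 h, 19 chaperone genes had been called higher and 2 lower of 34 tested, against 3.89% and 9.26% of all genes, with a median of 1.00. Nuclear genes of oxidative phosphorylation, which make up the respiratory chain and ATP synthase, had a median difference of -0.03 over 37 tested between the late windows, where 30 of 34 had been called lower in the step before (9.26% of all genes), with a median of -1.28.

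**Figure D4:**
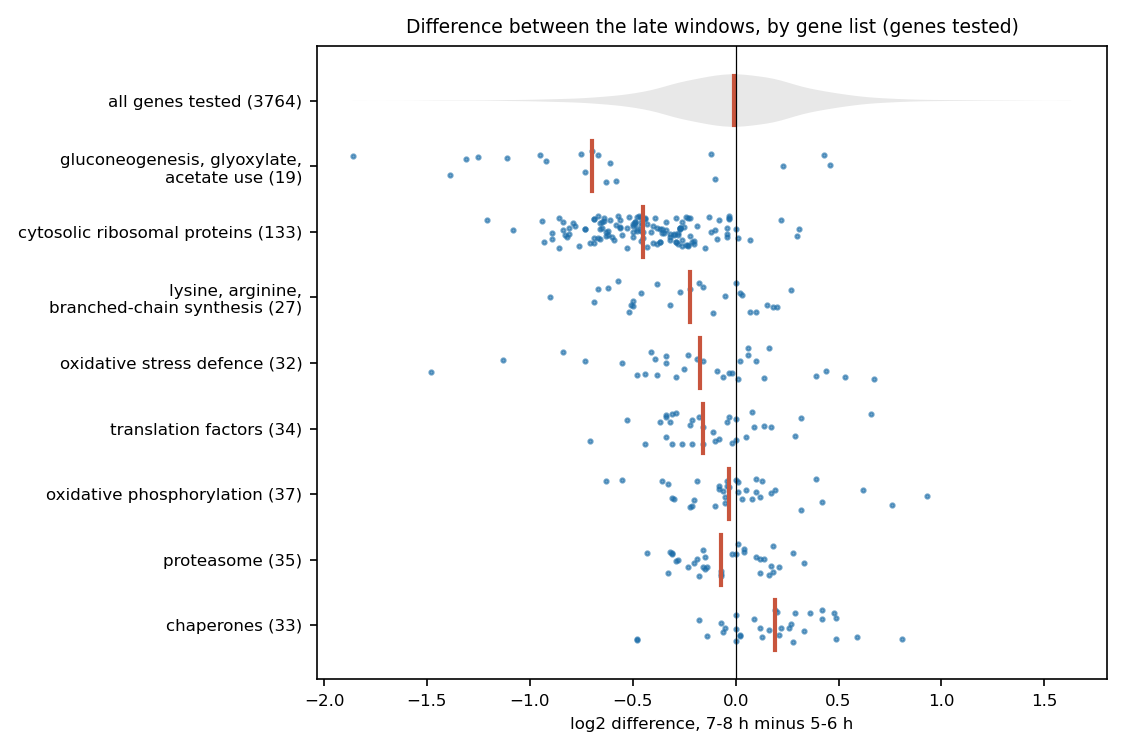
Log2 difference between 7-8 h and 5-6 h for the genes of 8 lists (points) and for all 3764 genes tested (grey shape), with the median of each as a red bar and the number of genes tested in brackets. The medians are -0.70 for gluconeogenesis and acetate use, -0.45 for ribosomal proteins, -0.07 for the proteasome and 0.19 for chaperones.

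Outside these groups a few genes had small p-values, and none of them passed the test. LEU4, the first enzyme of leucine synthesis, gave 1.27, 0.95 and 1.01 in series 1 and 1.37, 1.06 and 0.36 in series 2 at 5 to 6 h, and 0.22, 0.16 and 0.18 and then 0.14, -0.25 and 0.19, without overlap (difference -0.90 ± 0.18, adjusted p = 0.258). LEU4 passed in the linear trend from 5 to 8 h (adjusted p = 0.0413). The strain carries leu2 and lys2 mutations in both windows, and a link between these mutations and the differences was not tested. Of 27 tested genes for the synthesis of lysine, arginine and branched-chain amino acids, 5 were lower at an unadjusted p under 0.05 (18.5%, against 5.1% of all genes) and none higher, with a median of -0.22; beside LEU4 these were LYS20, LYS9 and LYS1 of lysine synthesis (-0.62 ± 0.18, -0.50 ± 0.18 and -0.51 ± 0.21) and CPA1, a subunit of carbamoyl phosphate synthetase (-0.69 ± 0.21). Of 34 tested translation factors 4 were lower (11.8%, against 5.1% of all genes) and 1 higher (2.94%, near the 2.55% of all genes) at an unadjusted p under 0.05, among them the elongation factor gene TEF4 (-0.71 ± 0.21), the eIF5A gene HYP2 (-0.53 ± 0.17) and, on the higher side, the eIF2B subunit gene GCD6 (0.66 ± 0.22). With quantile normalization 2 of the 34 translation factors were lower (5.88%, against 3.67% of all genes), and their median difference was -0.03. Without both arrays at 5 h 1 of 32 was lower (3.12%, near the 2.71% of all genes). LMO1, which was singled out after its values were seen because it had the second smallest p, ran from 3.52 to 5.08 and then from 1.75 to 3.73 over 5 arrays (difference -1.63 ± 0.26, adjusted p = 0.0859). LMO1 passed in the linear trend (adjusted p = 0.0422) and without the array of series 2 at 7 h (0.0489). NRD1 and HRP1, which act in the termination and processing of transcripts, differed by -1.42 ± 0.37 and -1.45 ± 0.38, and the actin gene ACT1 by -0.56 ± 0.14. Without both arrays at 5 h NRD1, HRP1 and ACT1 differed by -0.94, -0.97 and -0.47. LEU4, LYS20, LYS9, LYS1 and CPA1 then differed by -0.74, -0.46, -0.30, -0.30 and -0.63. Of the amino acid synthesis list 3 of 26 genes were then lower at an unadjusted p under 0.05 (11.5%, against 2.71% of all genes).

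On the higher side the windows were apart within each series for 14 of the 2614 genes with 12 values (0.536%), against 47 (1.8%) on the lower side. CHA1, the serine and threonine deaminase, gave 0.45, 0.53 and 1.06 in series 1 and 0.39, 0.52 and 0.78 in series 2 at 5 to 6 h, and 1.20, 1.42 and 1.85 and then 1.12, 1.07 and 1.88 at 7 to 8 h. All late values of CHA1 were above all early ones (difference 0.80 ± 0.20, adjusted p = 0.335), and in the linear trend from 5 to 8 h CHA1 passed the test (adjusted p = 0.0305). PIN3, whose product binds the actin nucleation machinery and can induce a prion, ran from 0.35 to 0.86 and then from 1.10 to 1.34 (difference 0.61 ± 0.13). GLO2, a glyoxalase that clears methylglyoxal, differed by 0.72 ± 0.18 and TAF10, a subunit of TFIID and SAGA, by 0.88 ± 0.23. NQM1, a transaldolase found mainly in non-dividing cells, had a difference of 1.01 ± 0.27. Of 37 lists with at least 5 genes tested, 34 had a median within 0.25 of 0, and the 2 medians below -0.25 were those of the acetate and the ribosomal protein genes; the median above 0.25 belonged to meiosis and sporulation, with 8 genes tested (0.31) and none at an unadjusted p under 0.05.

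The same test on the earlier steps of equal length, added after the data had been seen, gave more calls. From 3-4 h to 5-6 h 142 genes were higher (3.89%) and 338 lower (9.26%) of 3649, and from 1-2 h to 3-4 h 103 were higher (2.84%) and 212 lower (5.84%) of 3633. With quantile normalization the counts were 106 and 111 for the later of these steps and 55 and 46 for the earlier; without centring they were 50 and 218, and 33 and 16, with the median of all genes at -0.11 and 0.23. The median size of the difference was 0.32 and then 0.37 on the log2 scale in these steps and 0.21 between the last windows, with median standard errors of 0.26, 0.27 and 0.25. The steps share arrays with their neighbours, and the difference between their counts was not tested. The acetate list had a median of 1.51 from 1-2 h to 3-4 h, of -0.48 from 3-4 h to 5-6 h and of -0.70 at the end. The ribosomal protein list had medians of -0.99, -1.20 and -0.45.

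Genes picked for their change from 1-2 h to 3-4 h, on arrays that the late windows do not use, were followed into the late windows. Of the 103 higher genes 96 were tested, and 19 were lower and 4 higher at an unadjusted p under 0.05, with a median difference of -0.07. Of the 212 lower genes 204 were tested, and 48 were lower and 4 higher, with a median of -0.27. Against 5.1% lower and 2.55% higher over all genes, both groups held more genes on the lower side. The first group includes 10 genes of the acetate list, PCK1 and ACS1 among them. The second group includes many ribosomal protein genes, of which 87 were lower in that early step. These counts are therefore not separate from those given for the acetate and ribosomal protein lists.

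**Figure D5:**
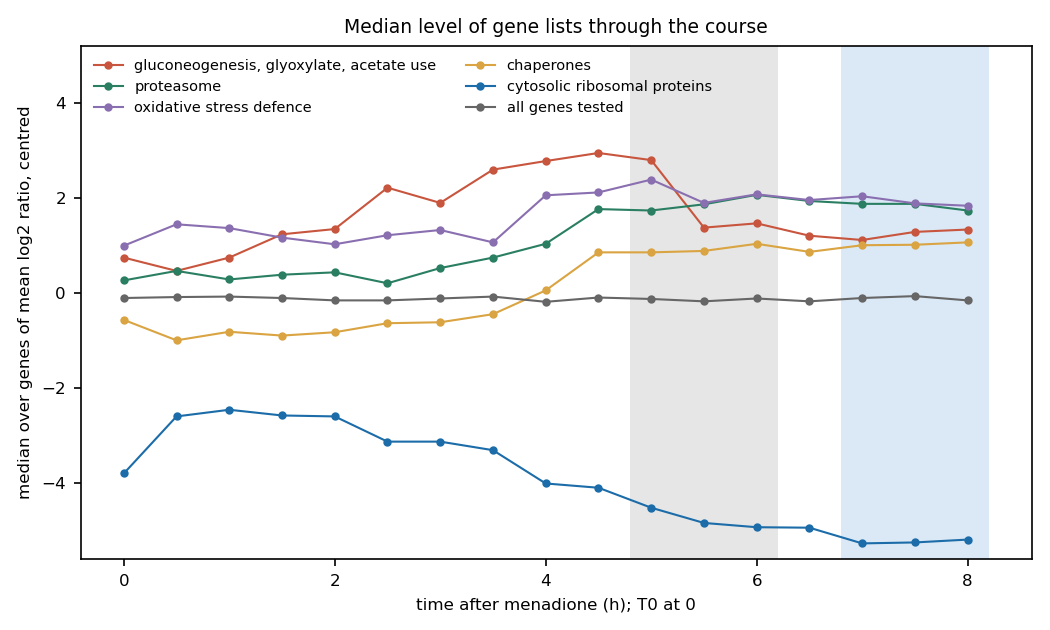
Median over the genes of a list of the mean centred log2 ratio against the time after menadione in hours, with T0 drawn at 0; the grey band marks 5-6 h and the blue band 7-8 h. The acetate list is at 2.94 at 4.5 h and 2.79 at 5 h, then at 1.37 at 5.5 h within the early window and at 1.33 at 8 h, and the ribosomal protein list goes from -2.46 at 1 h to -5.19 at 8 h.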

How the data were processed

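The value table of the spotted 70-mer arrays was used. For each probe the deposited value is a linear ratio, Cy5 over Cy3 (unit: other, since some are negative); the authors scanned the arrays and drew spots with GenePix Pro, and whether background subtraction or the spike-in normalization of the methods entered the deposited ratios is not given in the sources used here. Values at or below 0 and the value 100000 were taken as missing, the rest were taken to log2, and probes of a gene were averaged. Of 6819 probes 5904 had 1 gene and 915 none in the platform annotation, and 5899 matched RefSeq names. The median of each array was then subtracted. The comparison of windows was made in R 4.3.3 using limma 3.58.1, with window and replicate series as terms, and p-values were adjusted over all genes tested. The fit was tested on simulated data with 200 of 3764 genes changed by known amounts. It recovered 0.5% of changes of 0.5 on the log2 scale, 56% of changes of 1 and 91% of changes of 2. False calls numbered 0, 3 and 12. Few changes of 0.5 would thus be called by this fit. The interaction with the upshift course used the arrays of both courses. The series numbers pair the arrays: over 15 pairs of times, the deviations of series 1 from the time means correlated at 0.165 to 0.72. Genes were named from those called and then, by smallest p, from those with 12 values and windows apart in each series, given as not passed, and from genes the study discusses for this course; further members of the lists, LMO1 and NQM1 fall outside that rule and were chosen after their values were seen. The members and lists were chosen with earlier results of these data known, and RPP1 and MRP8, which are not ribosomal proteins, were taken out of the lists after values had been seen. The number of arrays limits the precision. Alternatives were no replicate block, no centring, quantile normalization, values in all 12 or in at least 2 arrays of each window, a 2-fold minimum, means for each time, a linear trend, robust and trended moderation, each series alone and each array left out. The comparisons of earlier windows, the counts at an unadjusted p and the comparison without both arrays at 5 h were added after seeing the data.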

Additional observations from a re-analysis of the deposited data

Results flagged for a closer look

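In 12 of 138 groups of values examined, 1 array lay far from the others of its window by Dixon's criterion, which chance meets in about 1 group in 20. At 5-6 h these were RPL5 at -7.13 (6 h, series 2; nearest value -6.36), the chaperone gene SSA3 at 0.48 (5 h, series 2; nearest 1.30) and the median level of the proteasome list at 2.37 (6 h, series 1; nearest 1.84). At 7-8 h the array of series 1 at 7 h gave 3 of them, ADH2 at -2.22, HRP1 at -1.01 and the median level of the acetate list at 0.30, with nearest values of 0.68, 0.19 and 1.28. The array of series 2 at 8 h also gave 3, OYE2 at -2.89, RBA50 at -0.21 and the median level of the proteasome list at 1.32, with nearest values of -1.77, -0.67 and 1.74. The others were MLS1 at 5.98 and LEU4 at -0.25 (7.5 h, series 2; nearest 5.18 and 0.14) and ACS1 at 4.02 (8 h, series 1; nearest 3.48).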

How the results depend on the processing

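Between the windows, the count of lower genes was 1 in the fit given and 0 without centring, with quantile normalization, with values in at least 2 arrays of each window, with robust and trended moderation, in either series alone and without both arrays at 5 h. With means for each time it was 3, OYE2, RPL26A and RPL29, and PCK1 was lost; with the trend it was 4, PCK1, OYE2, LEU4 and LMO1, and 0 to 3 when single arrays were left out. It stayed at 1 without the replicate block, with values in all 12 arrays and with a 2-fold minimum. The count of higher genes was 0 except for 1 with the trend. At an unadjusted p under 0.05 the 96 higher genes became 53 without the replicate block, 22 without centring and 60 without both arrays at 5 h, and 25 to 132 without a series or an array; the 192 lower genes became 103 without centring, 91 without both arrays at 5 h and 57 to 231 without a series or an array. Without the array of series 2 at 5 h they were 57 and 121. For 5-6 h against 3-4 h the counts higher and lower were 94 and 222 without the replicate block, 50 and 218 without centring, 111 lower with quantile normalization, and 0 to 1 and 0 in single series. For 3-4 h against 1-2 h they were 46 and 113 without the block, 33 and 16 without centring, 55 and 46 with quantile normalization, and 0 and 0 in single series. No gene differed between the courses except 1 without the array of series 2 at 5 h. MLS1 was at 0.48 without series 1 and at -1.70 without series 2, and SSB1 and SSB2 were at 0 and 0.03 with quantile normalization; the cause was not tested.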
